A study of Mus musculus with 21 samples.

Results

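Enzymes and carriers of glycolysis, pyruvate use, the pentose phosphate pathway and gluconeogenesis were examined by their RNA in circumvallate taste buds of the mouse. The 35 genes were listed by symbol from the textbook pathways, with no cut on a measured value but with earlier results of these data known. Each symbol was found at 1 of the 32052 loci of the authors' deposited table. Tissue came from adult C57BL/6J mice, wild type in genotype and 20 to 24 weeks old. The labels name 7 Hungry, 7 Satiated and 7 Ad lib libraries, prepared from circumvallate papillae dissected from the tongue. These papillae hold taste buds, the surrounding epithelium and tissue beneath. Among taste bud markers 10 of 10 were detected, Krt8 at 37058 and Gnat3 at 24576 fragments, and among keratinocyte markers 7 of 8, led by Krt6a (41906 fragments), above Krt8, then Krt4 (19095.5) and Krt13 (17703). Summed over single-gene loci, the taste bud markers held 88288 fragments and the keratinocyte markers 84818, and their part in the levels below was not tested. Skeletal muscle markers were detected for 3 of 8 (7 were found in the table) and erythrocyte markers for 1 of 6 (Alas2, at a locus with Pfkfb1). Gland markers were detected for 2 of 8 and fibroblast markers for 2 of 6. Dcn had 364 fragments and Pdgfra 814 (at a locus with Mir7025), while Col1a1 had 0.180, Col1a2 5.31, Col3a1 5.32 and Lum 3.07. The globin genes Hba-a1, Hba-a2, Hbb-bt and Hbb-bs had 0.135, 0.148, 0.0575 and 0.115. Bpifa2, Dcpp1, Pip, Prol1 and Slc4a1 were at 0 fragments that match annotated transcripts, although 21.2 of any kind were counted at Slc4a1.

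The table lists 3 conditions, whose 5 value columns were compared locus by locus, and 0 loci had unequal values. Each value below is therefore a mean over all 21 libraries, and no comparison of Hungry with Satiated or Ad lib mice could be made. No value per library is given either. A level is the authors' mean number of fragments per library that match annotated transcripts (compatible fragments), after scaling for depth, and a total also counts fragments of the locus that match none. The mean library held 21881979 compatible fragments. Spread is the coefficient of variation (CV), the square root of the authors' variance over the mean, with SDs from that variance. Loci with fragments in 1 library only showed that this variance was taken within sets of 8, 7 and 6 libraries, so a difference between the means of those sets is not part of the CV. These sizes disagree with the 7 libraries per group in the labels, and which set is which condition is not known. Whether libraries came from separate animals is not stated, so the spread may be partly technical. In tissue of mixed cell types, fewer cells of a type and less RNA per cell cannot be told apart.

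Glycolysis splits glucose in the cytosol into pyruvate, and its early steps spend ATP while its late steps return it. Pyruvate is then reduced to lactate, which leaves through monocarboxylate transporters, or enters mitochondria through a carrier and is oxidised by the pyruvate dehydrogenase complex, which pyruvate dehydrogenase kinases switch off. The pentose phosphate pathway branches off after the first step and supplies NADPH and ribose phosphate. Several steps have alternative enzymes (isozymes) encoded by separate genes and used to different extents by different tissues.

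Sequences of 2 kinds bear on how these levels can be read. The first set shows why fragments of a glycolytic gene may match other places in the genome. It gives bases 4 to 63 of the coding sequence of Gapdh, the enzyme that oxidises glyceraldehyde phosphate, beside the same stretch of its most abundant near copy, Gm7336, and of 3000002C10Rik, the most abundant copy under 95% identity. Capitals mark the 8 positions at which 3000002C10Rik differs, while Gm7336 differs at 0 of the 60. The loci are chr6:125145241-125166467 (minus strand), chr7:51746697-51747698 (plus strand) and chr9:109827943-109832706 (minus strand) on GRCm38, and the letters are those of GENCODE M21 transcripts, written 5′ to 3′.
Gapdh: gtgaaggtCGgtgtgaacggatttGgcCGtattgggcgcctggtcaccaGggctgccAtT
Gm7336: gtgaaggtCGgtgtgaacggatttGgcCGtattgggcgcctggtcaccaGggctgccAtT
3000002C10Rik: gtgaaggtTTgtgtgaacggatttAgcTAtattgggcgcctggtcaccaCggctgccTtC

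The second set shows the alternative exons of Pkm, which encodes pyruvate kinase in a muscle form (M1) and a form of growing cells (M2). The merged annotation holds 2 Pkm transcripts that differ only in this exon, at chr9:59675029-59675195 for M1 and chr9:59675568-59675734 for M2 (GRCm38, plus strand). Both exons are 167 bases long and identical at 103 positions (61.7%). Capitals mark the 64 positions that differ.
Pkm M1 exon: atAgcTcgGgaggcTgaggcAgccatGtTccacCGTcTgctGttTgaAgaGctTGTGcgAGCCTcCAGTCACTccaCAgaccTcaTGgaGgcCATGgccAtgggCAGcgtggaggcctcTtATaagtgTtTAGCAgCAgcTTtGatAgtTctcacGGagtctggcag
Pkm M2 exon: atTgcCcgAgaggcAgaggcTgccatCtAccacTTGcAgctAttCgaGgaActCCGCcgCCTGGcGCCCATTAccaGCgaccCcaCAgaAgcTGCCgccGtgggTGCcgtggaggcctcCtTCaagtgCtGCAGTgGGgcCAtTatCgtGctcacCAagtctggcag
The table sums fragments over a locus, so the level of Pkm covers both forms and gives no M1 or M2 level.

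Nearly the whole pathway was expressed. Of the 35 members 34 were detected. Detection required 10 or more compatible fragments on average, which 42.0% of all loci reached. The exception was Pck1, cytosolic PEP carboxykinase of gluconeogenesis, which was listed at 0 compatible and 0 total fragments, as were 8.29% of all loci. A count of 0 allows a mean of up to 0.143 fragments per library (3 fragments over 21 libraries, counting error only). Detected members had a median level of 2762 fragments, against 514 over all detected loci, and 13 of the 35 ranked in the top 10% of detected loci. Together the member loci carried 0.605% of compatible fragments. Only 21 members had a locus of their own, and 20 of these were detected. The other 14 lay at loci with several gene names (64.6% of detected loci hold 1), where fragments of the neighbour count too. Pfkm shares its locus with Senp1, Pfkp with Pitrm1, Tpi1 with Spsb2, Gapdh with Iffo1, Pdha1 with Map3k15 and G6pdx with Ikbkg. Hk1, Hk2, Gpi1, Aldoa, Pdk2, Mpc1, Mpc2 and Tkt share theirs with predicted or non-coding genes only.

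**Figure D1:**
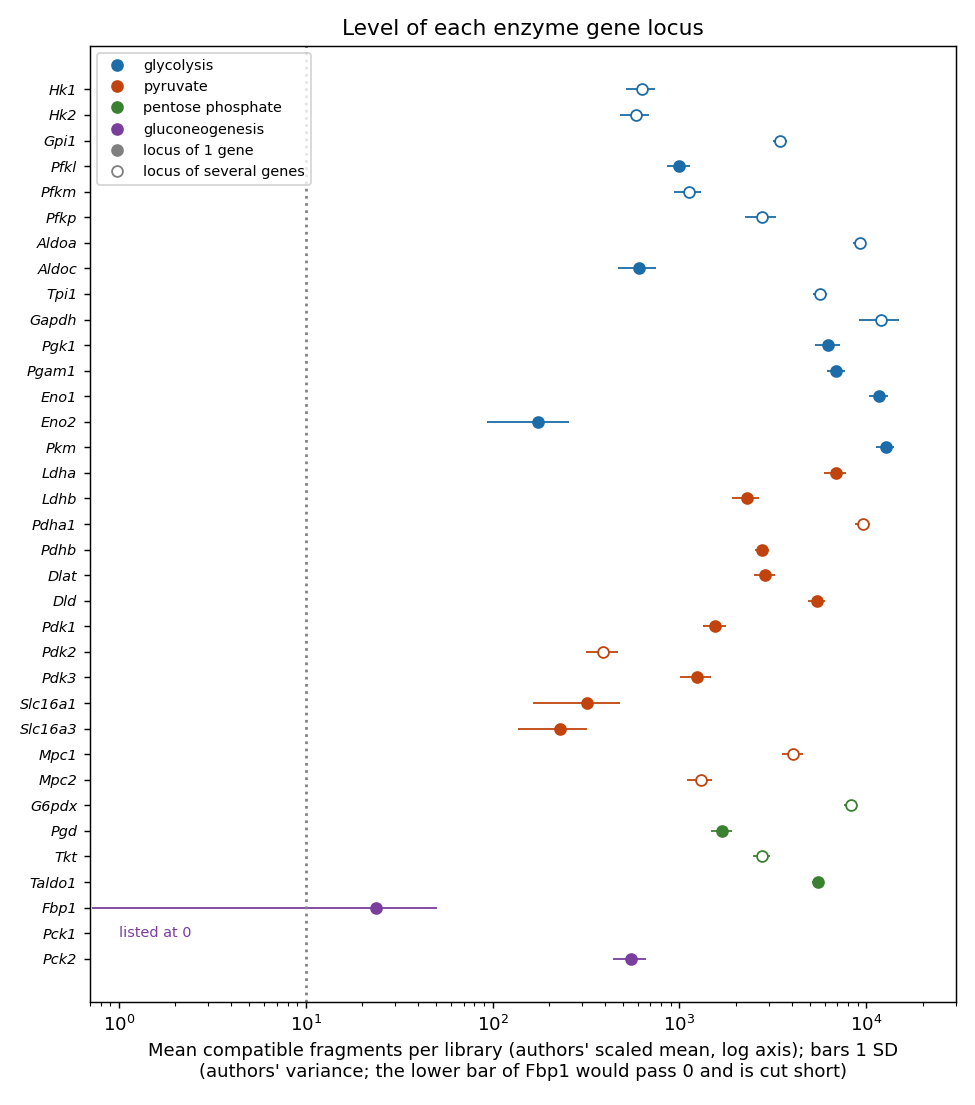
Mean compatible fragments per library (log axis) for the 35 members from top to bottom in pathway order, with 1 SD from the authors' variance, filled where the locus holds 1 gene and open where it holds several. The dotted line marks the detection level of 10 fragments. Lower glycolysis (Gapdh to Pkm, apart from Eno2) lies to the right, and the hexokinases, Eno2, both monocarboxylate transporters and Fbp1 lie to the left.

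Apart from the brain isozymes, levels within glycolysis were lowest for the hexokinases and highest at the lower end of the pathway. The hexokinases, which trap glucose in the cell by phosphorylation, had 627 ± 112 fragments for Hk1 (the form of most tissues) and 586 ± 105 for Hk2 (the insulin-regulated form of muscle and fat). Gpi1, which turns glucose phosphate into fructose phosphate, had 3468 ± 285 fragments with a CV of 0.0823. Of the 3 phosphofructokinase genes, whose enzyme commits sugar to glycolysis, Pfkp (platelet type) had 2759 ± 508 fragments, Pfkm (muscle type) 1119 ± 179 and Pfkl (liver type) 997 ± 141. These levels are not divided by transcript length.

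Below the split of the sugar, each step had a gene at 5672 fragments (Tpi1) or more. Aldoa, the main aldolase, had 9262 ± 746 fragments and Tpi1, triose phosphate isomerase, 5672 ± 484. Gapdh had 12000 ± 2914 fragments and Pgk1, which makes the first ATP, 6263 ± 939. Pgam1, a mutase that moves the phosphate, had 6915 ± 758 fragments. Eno1, the enolase of most tissues, had 11658 ± 1345 and Pkm had 12672.5 ± 1442 (errors throughout are SDs within the sets of the 21 libraries). Aldoc and Eno2, the aldolase and enolase known from brain, had 608 ± 139 and 175 ± 81.7 fragments, far below their partners. Eno2, Tpi1 and Gapdh are neighbours on chromosome 6, with 39.0 kb between the loci of Eno2 and Tpi1 and 331 kb between those of Tpi1 and Gapdh, although their levels differ widely.

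Isozymes were compared per kb of transcript, since longer transcripts give more fragments. The length used was the median over the annotated transcripts of a gene of at least 500 bases. Many short annotated fragments enter that median, so differences between genes are also given by the longest transcript where that moved them by more than 1.5-fold. Levels per kb themselves depend strongly on this choice. Errors are SDs on the log2 scale from both variances, taken as independent. The order of a pair was called beyond its SD only where this held by the median, longest, union and longest coding length, without length scaling and by total fragments.

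Eno1 stood 6.17 ± 0.69 above Eno2 on the log2 scale of fragments per kb (16994.5 against 236 per kb, or 5751 against 62.8 by the longest transcript). Aldoa stood 3.71 ± 0.35 above Aldoc, a 13.0-fold difference, or 27.4-fold by the longest transcript. Ldha, the lactate dehydrogenase subunit that favours lactate formation, stood 1.51 ± 0.30 above Ldhb, the subunit of oxidative tissues (7528 against 2640 per kb, or 3888 against 1755 by the longest transcript). These 3 differences exceeded their SD under every length tried. The locus of Pfkp exceeded that of Pfkl by 0.88 ± 0.34 and kept that sign, with a range of 0.37 to 1.47. Fragments of Pitrm1 at the Pfkp locus and of Senp1 at the Pfkm locus count too, and no length scale removes them. Pfkm could not be placed among the phosphofructokinases. Pfkp over Pfkm was 2.94 by the median, 0.61 by the longest transcript and −0.37 by the union of exons, and Pfkl over Pfkm was 2.05, −0.54 and −0.74. Hk1 over Hk2 was 0.98 ± 0.37 by the median and ran from −0.42 to 1.25, so neither hexokinase gene was higher on all scales.

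**Figure D2:**
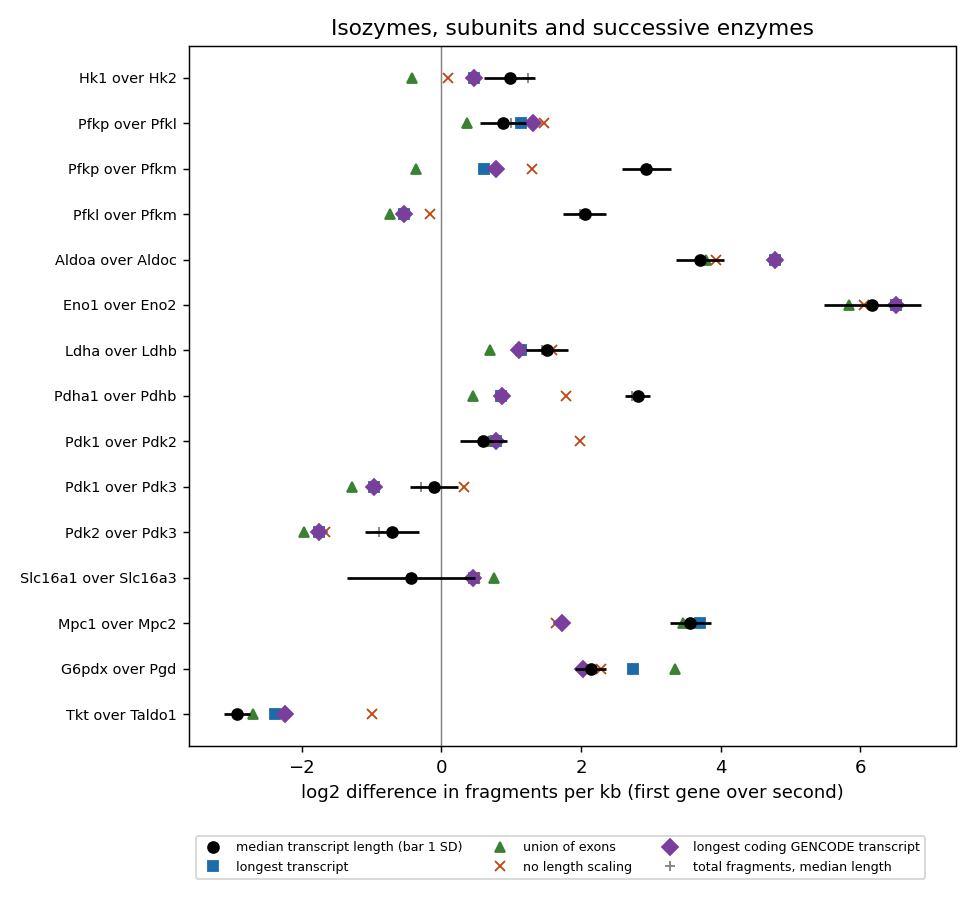
Log2 difference in fragments per kb, first gene over second, for 15 pairs; black points use the median transcript length with 1 SD, other marks the alternatives named in the legend. Eno1 over Eno2 and Aldoa over Aldoc lie far to the right under every scale, whereas the hexokinase pair, both pairs with Pfkm, Pdk1 over Pdk3 and Slc16a1 over Slc16a3 have marks on either side of 0.

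Both fates of pyruvate were represented. Ldha had 6866 ± 916 fragments (chr7:46841475-46855627) and Ldhb 2289 ± 374 (chr6:142490249-142507957). The lactate exporters Slc16a1 (MCT1) and Slc16a3 (MCT4) were among the lowest members, with 321 ± 158 and 229 ± 92.6 fragments. Per kb Slc16a1 over Slc16a3 was −0.44 ± 0.92 (log2), or 0.47 by the longest transcript, so they were not separated. Bsg, whose protein escorts both transporters to the membrane, had 8140 fragments. Of the other members of that transporter family listed, Slc16a7 had 94.9 fragments and Slc16a8 569 at a locus with Pick1.

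The mitochondrial pyruvate carrier is built from 2 subunits. Mpc1 had 4049 ± 524 fragments and Mpc2 1300.1 ± 202, and per kb Mpc1 was 3.57 ± 0.29 higher on the log2 scale (1.64 without length scaling). Genes of the pyruvate dehydrogenase complex had 9575 ± 891 fragments for Pdha1 and 2771 ± 229 for Pdhb, the subunits of its first enzyme. They had 2880 ± 373 for Dlat, the acetyl-transferring core, and 5418 ± 570 for Dld, which other complexes also use. Pdha1 stood above Pdhb under every length, by 2.82 ± 0.18 with the median and 0.85 with the longest transcript. Its locus also holds Map3k15. Pdhx, a structural subunit outside the 35, had 893 fragments.

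Among the kinases that inactivate this complex, Pdk1 (induced by low oxygen) had 1553 ± 216 fragments, Pdk3 1240 ± 236 and Pdk2 392 ± 74.9. Per kb Pdk2 lay below Pdk1 and Pdk3 under every length, with Pdk1 over Pdk2 at 0.60 ± 0.34 and Pdk2 over Pdk3 at −0.70 ± 0.39, or −1.75 by the longest transcript. Pdk1 over Pdk3 was −0.10 ± 0.34, or −0.97 by the longest transcript, and 0.32 without length scaling. Pdk4, the fasting-induced kinase, had 13.4 fragments. Its counterpart phosphatase genes Pdp1 and Pdp2 had 1660 and 142 fragments.

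The 4 pentose phosphate genes had a median level of 4132 fragments and a median CV of 0.0962, against 514 and 0.231 over all detected loci. G6pdx, which commits sugar to the pathway and makes NADPH, had 8248 ± 695 fragments at a locus with Ikbkg (chrX:74393290-74453854). Pgd, the later NADPH-forming enzyme, had 1692 ± 221. In the non-oxidative branch, which exchanges carbon units with glycolysis, Tkt had 2765 ± 299 fragments and Taldo1 5499.9 ± 405. G6pdx over Pgd was 2.14 ± 0.22 per kb (log2), or 2.74 by the longest transcript, and Tkt over Taldo1 −2.92 ± 0.19 per kb (log2), or −0.99 without length scaling, both beyond their SD on all scales. Above the authors' fitted variance lay 0 of the 4, against 26.1% of detected loci, and Taldo1 had the lowest CV of the 34 detected members, 0.0737. The 4 genes are abundant and CV declines with level, so these contrasts with all detected loci are not at equal level. From a further list of 9 pentose phosphate genes, 8 were found and 6 detected. Rpia, the ribose phosphate isomerase, had 512 fragments and H6pd of the endoplasmic reticulum 125, while the testis-type Tktl2 had 0.0495.

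Of the gluconeogenic genes, mitochondrial Pck2 was the only member detected above 50 fragments, with 552 ± 110. Fbp1, the liver fructose bisphosphatase, had 23.8 ± 26.5 compatible and 58.9 total fragments, a compatible share of 40.4%. Its relative Fbp2, known from muscle and not among the 35, had 692 fragments with a CV of 0.204. Of the muscle markers 3 of 8 were detected, with levels from 1.08 for Mb and 4.24 for Ckm to 44.1 for Myh2, and their part in the Fbp2 level was not tested. Pcx, pyruvate carboxylase, had 601 fragments at a locus with Lrfn4. G6pc and G6pc2, the glucose phosphatases of liver and islet, were listed at 0 compatible fragments, and G6pc3, the form of most tissues, had 1087.

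By level per kb, Eno1 led the members with 16994.5, followed by Pdha1 with 13134.3, Gapdh with 11131.7, Aldoa with 10067.3 and G6pdx with 9014. By the longest transcript Aldoa led with 5979, before Eno1 with 5751 and Pkm with 5211, while Gapdh had 3649, Pdha1 3362 and G6pdx 3110. The loci of Pdha1, Gapdh and G6pdx also hold Map3k15, Iffo1 and Ikbkg, whose fragments count on either scale. Only 2 of the top 5 on each scale were shared, Aldoa and Eno1. Of the top 10 on each scale 8 were shared, and Fbp1, Slc16a1, Slc16a3 and Eno2 were in the bottom 5 on both. Only 8 of the 33 steps from 1 detected member to the next exceeded the SD of the step, on either scale.

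Spread between libraries was small for most members. The median CV of the 20 detected single-gene members was 0.140, against 0.253 for all 8696 such loci, but CV declines with level and the members are abundant. Relative to the variance the authors fitted at the same mean, the median log2 ratio of the members was −0.86, against −0.62 for all detected single-gene loci. Above the fitted variance lay 4 of the 20 (20%), against 27.6% of such loci. With loci of several genes added it was 6 of 34, against 26.1%. Against a running median in place of the fit, 11 of 20 lay above, beside 50.2% of loci, so the members were near the background on either reading.

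The 6 above the fit were of different kinds. Slc16a1 had a CV of 0.490 where the fit gives 0.335, a log2 variance ratio of 1.10. Slc16a3 followed at 0.404 against 0.381, Eno2 at 0.466 against 0.423 and Fbp1 at 1.11 against 0.838. Pfkp was close to its fit, at 0.184 against 0.173. Gapdh stood out among the abundant ones, with a CV of 0.243 where the fit gives 0.160, a log2 ratio of 1.20. Pkm and Eno1 at like levels had CVs of 0.114 and 0.115. The steadiest members relative to the fit were Taldo1 at −2.25, Pdhb at −2.14 and Gpi1 at −2.06. All 7 detected keratinocyte markers lay above the fit, with a median CV of 1.32, while Sprr1b was at 5.01 fragments. Without values per library, whether they moved with Slc16a1, Slc16a3 or Eno2 was not tested.

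**Figure D3:**
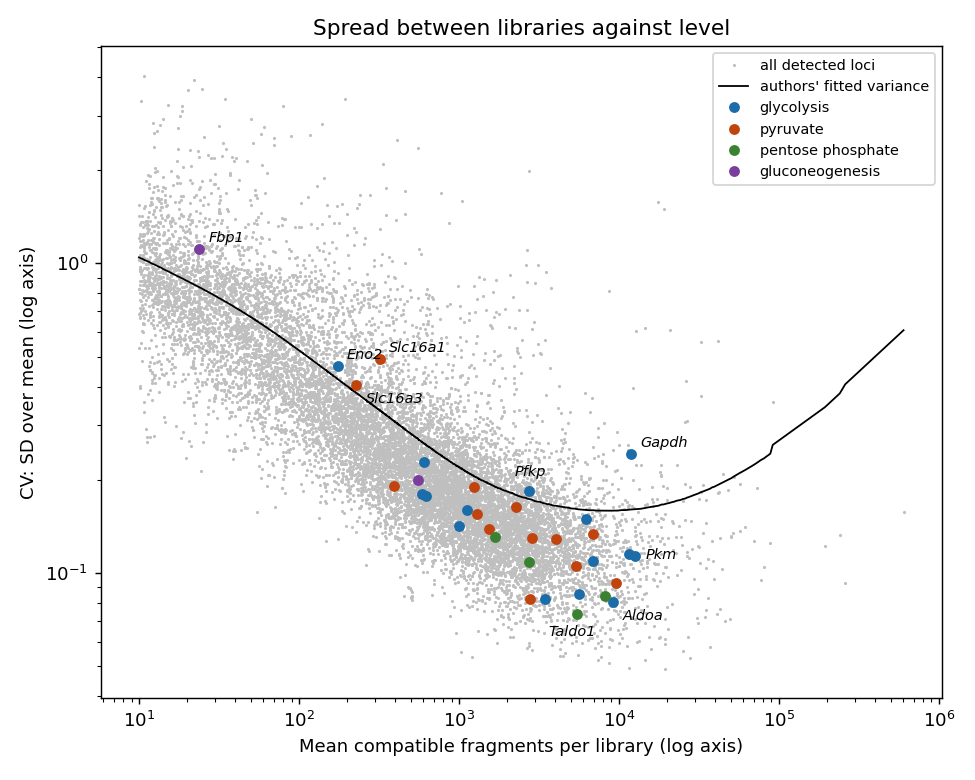
CV against mean compatible fragments (both axes log) for all detected loci (grey) and the 34 detected members (coloured by pathway branch), with the CV from the authors' fitted variance as a black line. Gapdh, Slc16a1, Eno2, Slc16a3, Pfkp and Fbp1 lie above the line, and Taldo1 is lowest at 0.0737.

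Several abundant members have near copies elsewhere in the genome at which fragments were also counted. The longest coding transcript of each member was aligned to all GENCODE M21 transcripts, and genes with at least 90% identity over at least 300 bases were counted as near copies. Such copies existed for 15 members, and 0 pairs of members passed both limits with each other. The share of all genes with such copies was not computed, so whether 15 is many is not known. How the authors placed fragments that match several loci is not given in the sources used here. Gapdh, known in rodents for its many processed pseudogenes, had 177 copy genes, of which 122 had a single-gene locus in the table. These 122 loci summed to 8085 compatible fragments, 67.4% of the level at Gapdh itself. Their levels followed their likeness to Gapdh. The 28 loci of at least 98% identity were all detected, with a median of 176 fragments, against 14 of 24 with a median of 15.7 between 95% and 98% and 10 of 70 with a median of 0.431 below 95%. Spearman's rho between identity and level was 0.885 over the 122 loci, which share libraries and length and are given as a description.

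The copies most like Gapdh were almost equal to each other. The 8 loci with at least 450 fragments lay between 483 and 508 fragments, all at 99.76% identity or more. Gm7336, whose coding stretch is printed above, had 508 fragments and was identical to Gapdh at 999 of 999 coding bases. Gm10359 had 508 fragments and Gm12671 507. The CVs of the 8 ranged from 0.0817 to 0.0900, against 0.243 at Gapdh, and their log2 ratio to the fitted variance from −3.56 to −3.33, against 1.20. 3000002C10Rik, with its 8 differences in the printed stretch, had 42.0 fragments.

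**Figure D4:**
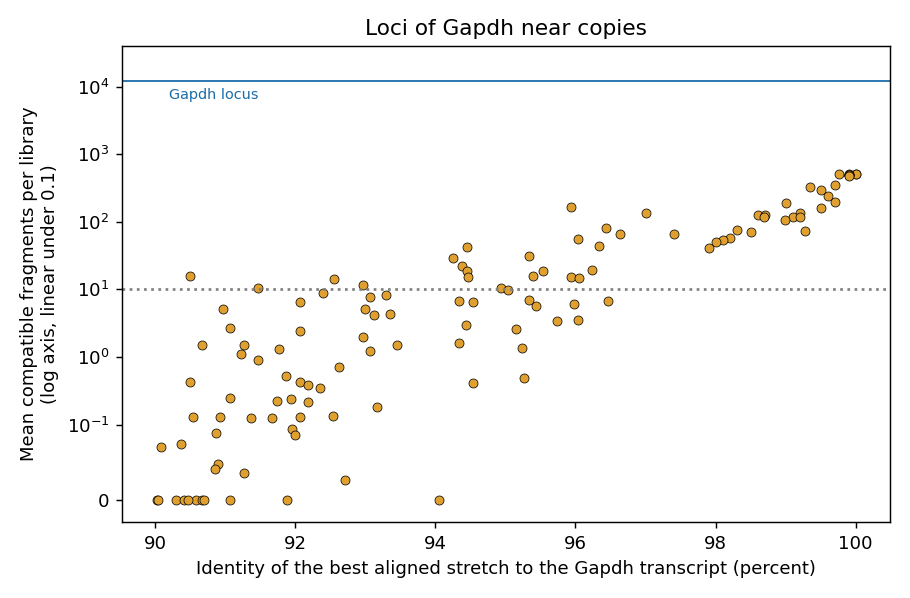
Mean compatible fragments (log axis, linear under 0.1) of the 122 single-gene loci of Gapdh near copies against identity to the Gapdh transcript; the blue line is the Gapdh locus at 12000 and the dotted line the detection level of 10. Loci above 98% identity all lie over the detection level, and the 8 highest sit together near 500 at the right edge (483 to 508 fragments).

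Other members had fewer copies but some equally close. For Pgk1, Pgk1-rs7 on chromosome 12 had 1010 fragments and Gm5537 on chromosome 3 had 943, identical to Pgk1 at 1250 of 1250 and 1251 of 1251 aligned coding bases. Both together came to 31.2% of the Pgk1 level. Pgam1-ps2 on chromosome 7 had 695 fragments, 10.1% of Pgam1, and was identical at 762 of 762 coding bases. For Eno1 both copy loci summed to 20.2% of its level. Eno1b had 1508 fragments with a CV of 0.353, and Gm4735 on chromosome 2 had 842 and was identical at 1297 of 1302 bases. CVs of these copies ran from 0.329 for Pgam1-ps2 to 0.425 for Gm4735, against 0.110 for Pgam1, 0.115 for Eno1 and 0.150 for Pgk1. The levels of Gapdh, Pgk1, Eno1 and Pgam1 and of their copies are uncertain, since counting could split fragments between them. Ldha had 13 copy genes, whose 6 single-gene loci held 1.82 compatible but 453 total fragments. Pkm, with 8 copy genes, had 0.910 compatible fragments at 4 loci, and 20 members, among them both hexokinases, Eno2, Dld and Tkt, had no near copy.

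**Figure D5:**
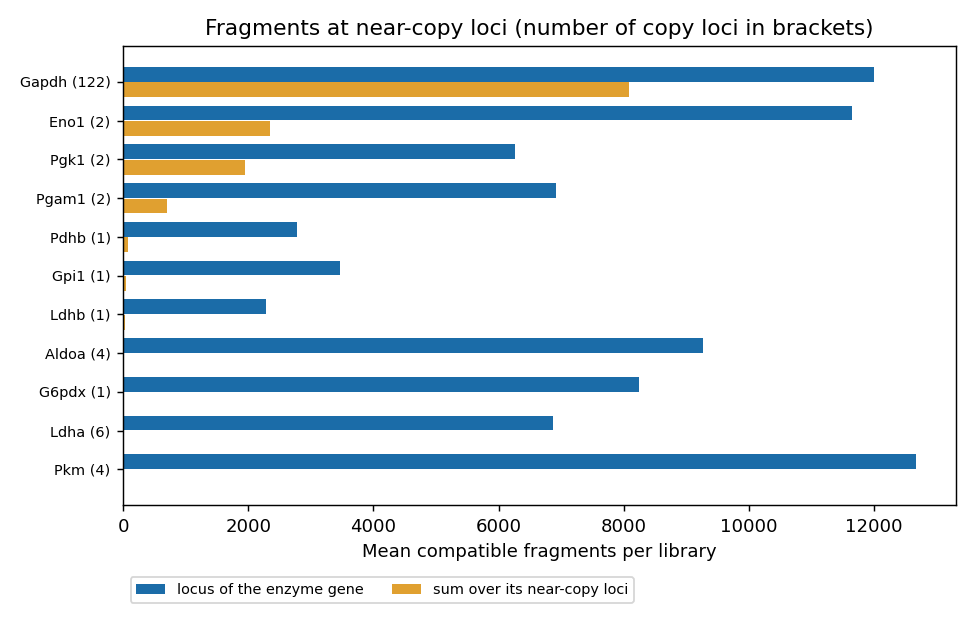
Mean compatible fragments at the locus of each member with single-gene near-copy loci (blue) and summed over those copy loci (yellow), with the number of copy loci in brackets. Copies of Gapdh sum to 8085, those of Eno1 to 2350, those of Pgk1 to 1953 and those of Pgam1 to 695, and for the other members shown they come to under 100.

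Annotated transcripts accounted for most fragments of the members. The compatible share was 99.0% at the median of the 20 detected single-gene members, against 95.5% for all such loci. A share of at least 95% was reached by 16 of the 20 (52.3% of such loci). Besides Fbp1, the lowest shares were those of Hk1, at 81.7% with Hk1os in its locus, and Pdk3, at 84.7%. The merged annotation gave the 35 members 259 transcripts, of which 54 had splice patterns beyond the reference. Whether these 54 counted as annotated for the compatible fragments is not stated. Transcripts with such patterns existed for 26 members, and for 13 of the 20 detected single-gene members (34.4% of detected single-gene loci). These 20 members had a median level of 1990.5 fragments, against 394 for all such loci. The contrasts in compatible share and splice patterns are therefore not at equal level. Hk1 had the largest number, 11 of its 32 transcripts. Pfkm, Pgam1, Pkm, Pdhb, Dld, Slc16a1, Mpc2, Taldo1 and Pck2 had none.

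Further lists held other genes of glucose handling, among them isozymes known from single tissues. Among 22 isozymes and regulators of the same steps 15 were detected, with 8 having a locus to themselves. The most abundant of these 8 were Bpgm, which makes the haemoglobin regulator bisphosphoglycerate, with 1687 fragments, and Pdp1. The muscle enolase Eno3 had 127. The testis isozymes Ldhc and Pgk2 were near 0, with 0.0472 and 0.139 compatible fragments. Pdha2 was listed at 0 compatible and 9.18 total fragments.

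Of 22 genes for glucose entry and its control 18 were detected, 6 at a locus of 1 gene. Slc5a1, the sodium-coupled glucose transporter, had 3935 fragments and Slc2a1, the basal glucose transporter, 2306, both at loci with predicted or small RNA genes. Slc2a4, the insulin-responsive transporter, had 129, Slc2a2 of liver and islet 40.2 and Slc2a5, which carries fructose, 12.2. Hif1a, a regulator of the response to low oxygen, had 7447 fragments. Txnip, an arrestin-like inhibitor of glucose uptake, had 5909, and the loci of Hif1a and Txnip are shared with predicted genes. Glycogen genes were detected for 9 of 11, with Gbe1, the branching enzyme, at 2317, and liver Gys2 was listed at 0 compatible fragments. All 16 citric acid cycle genes were detected. At their 10 single-gene loci levels ran from 717 for Dlst to 8215 for Mdh2, the median CV was 0.111 and 0 of 10 lay above the fitted variance, against 27.6% of detected single-gene loci. Those loci had a median level of 394, so this contrast is not at equal level. For the members the count above depended on the reference, 4 of 20 by the fit and 11 of 20 by a running median. Whether the citric acid cycle list differs from the members was not tested.

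Start sites of the members were rich in CpG. The RefSeq table for GRCm38.p6 held 50 windows of 300 bases around a start site for all 35 genes. Their median was 20 CpG and 60.8% GC, against 7 CpG and 52.7% GC over 32851 windows. The letters ACGTG on either strand, the core shared by hypoxia response elements and by the E-box CACGTG, which contains it, occurred in 18 of the 50 windows (36%), against 19.6% of all windows. In windows with at least 20 CpG it was 13 of 26 (50%), against 29% of 8701. CACGTG occurred in 4 of the 50, in windows of Ldha, Pdk2, Pfkm and Slc16a1 (8%, against 7.15%). TATAAA on either strand occurred in 1, of Eno2, which is 2% against 13.6%, and GGGCGG in 30, which is 60% against 35.7%. Only ACGTG was also counted in windows with at least 20 CpG, so the contrasts for the other motifs are not at equal base composition. These matches describe letters only. The 18 windows with ACGTG belong to 16 genes, and windows of a gene can overlap, as for Aldoa, so they are not separate units. The set of all windows was not limited to detected genes.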

How the data were processed

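RNA of circumvallate taste buds was sequenced as 21 libraries, grouped as the labels state. Per the submitters' processing notes, the tools were Cuffdiff, Cufflinks, Bowtie2, TopHat, FastQC and Trimmomatic, on GRCm38.p4; the sources used here state no versions, settings or counting rules. Per the file headers, the deposited table gives a signal: the authors' mean of depth-scaled fragments per locus, its variance and a fitted variance, not divided by length. With no value per library, no test was possible. The deposited annotation lists merged exons, by which loci were named. Members, lists and pairs were chosen with earlier results of these data known. Oligo(dT) priming, per the labels, can favour 3′ ends, so scaling by length is approximate.

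All 35 members were described. From the other lists, the highest and lowest detected single-gene members and those at 0 were named by rule, and further genes after their values were seen; some listed genes are not reported here. Sets of libraries were read from the ratio of variance to squared mean (tolerance 0.0001, relative). Near copies were found with blastn 2.17.0 (at least 90% identity over 300 bases). Alternatives were other detection levels, transcript lengths, identity limits and total fragments. Running medians used 201 loci. Steps were tested on simulated data. Scripts ran in Python 3.11.15 with pandas 2.3.3, numpy 2.4.6, matplotlib 3.10.9 and scipy 1.17.1.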

Additional observations from a re-analysis of the deposited data

How the results depend on the processing

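No paired analysis was possible because the table holds no value per library, and for the same reason no library could be left out. Under the settings run, 33 to 34 members were detected and the median compatible share was 98.8% to 99.2%. Members at single-gene loci numbered 29 when predicted and non-coding names were not counted, against 21. Against a running median of the variance 11 of 20 members lay above it and the median log2 ratio was 0.057, and with total fragments 10 and 0.025, where the fitted variance gave 4 and −0.86. The lowest members rest on few fragments, and spread includes counting error.

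Differences per kb depended on the transcript length. By the longest transcript Hk1 over Hk2 was 0.46, Pfkp over Pfkm 0.61, Pfkl over Pfkm −0.54, Aldoa over Aldoc 4.78, Ldha over Ldhb 1.15, Pdha1 over Pdhb 0.85, Pdk1 over Pdk3 −0.97, Pdk2 over Pdk3 −1.75, G6pdx over Pgd 2.74 and Tkt over Taldo1 −2.38. By the union of exons Hk1 over Hk2 was −0.42, Pfkp over Pfkl 0.37, Pfkp over Pfkm −0.37, Pfkl over Pfkm −0.74, Ldha over Ldhb 0.70, Pdha1 over Pdhb 0.46, Pdk1 over Pdk3 −1.28, Pdk2 over Pdk3 −1.97, Slc16a1 over Slc16a3 0.75, G6pdx over Pgd 3.35 and Tkt over Taldo1 −2.70. Without length scaling Hk1 over Hk2 was 0.10, Pfkp over Pfkl 1.47, Pfkp over Pfkm 1.30, Pfkl over Pfkm −0.17, Pdha1 over Pdhb 1.79, Pdk1 over Pdk2 1.99, Pdk1 over Pdk3 0.32, Pdk2 over Pdk3 −1.66, Slc16a1 over Slc16a3 0.49, Mpc1 over Mpc2 1.64 and Tkt over Taldo1 −0.99.

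By the longest coding GENCODE transcript, a choice made after seeing the data, Hk1 over Hk2 was 0.46, Pfkp over Pfkl 1.32, Pfkp over Pfkm 0.78, Pfkl over Pfkm −0.54, Aldoa over Aldoc 4.78, Ldha over Ldhb 1.11, Pdha1 over Pdhb 0.88, Pdk1 over Pdk3 −0.97, Pdk2 over Pdk3 −1.75, Mpc1 over Mpc2 1.73 and Tkt over Taldo1 −2.24. Why lengths moved these values was not tested. The limits of 95% and 98% identity, also added later, left 7806 and 6991 fragments at Gapdh copies, 65.1% and 58.3% of the Gapdh level.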
